A study of Homo sapiens with 12 samples.

Results

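The mRNAs described here encode the La-related proteins LARP1, LARP1B, LARP4, LARP4B, LARP6 and LARP7, the La protein itself (gene SSB), the cytoplasmic poly(A)-binding proteins PABPC1 and PABPC4, and PAIP1, a protein that binds poly(A)-binding proteins. They were chosen by gene symbol, 10 of the 59385 gene names in the count table, and all 10 passed the filter on low counts that left 18166 genes for testing. Upon PRRC2B knockdown, the translation efficiency (TE) of 7 of these mRNAs fell, that of LARP6 rose, and those of LARP7 and PAIP1 did not pass the test. Among all genes tested, 16.4% were called down and 10.7% up in TE. The call of LARP1B, 1 of the 7, was kept in 4 of 12 alternative analyses and in 3 of 12 without 1 library.

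PRRC2B is an RNA-binding protein, and the comparison asked which mRNAs change in TE when it is depleted. Both lines were HEK293T, derived from human embryonic kidney cells, and each carried a doxycycline (Dox)-inducible short hairpin RNA, either against PRRC2B (shPRRC2B) or non-targeting (shCtrl), and both were given Dox for 36 h. Each was a stable line grown from a single clone, so that the shRNA and the clone cannot be told apart. Total RNA and polysome-associated RNA, the latter pooled from gradient fractions 6 to 10, were sequenced from 3 biological replicates of each line, which made 12 libraries in 4 groups, all from poly(A)-enriched RNA. The cell line was taken from the labels, and no marker genes of the cell line were checked here.

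Library totals ranged from 9855734 to 20837542 counts. PRRC2B itself, the targeted gene, was at 272, 313 and 258 CPM (a gene's counts relative to the library total, scaled by the trimmed mean of M-values, TMM) in shCtrl total RNA and at 97.9, 103 and 100.5 CPM in shPRRC2B total RNA, a log2 change of -1.49 ± 0.17 (SE; edgeR adjusted p = 4.25e-06). The replicates did not hold the same library more than once. Replicates of total RNA differed by a chi-square per degree of freedom of 3.15 to 8.02, and those of polysome RNA by 12.4 to 64.2, where 1 would be sampling noise alone. The polysome libraries therefore carried most of the spread, and in both lines polysome replicate 1 lay farthest from the others. Because the replicates of a group are cultures of 1 clone, the p-values measure the spread between those cultures. In bulk RNA, a lower level in every cell and a low level in a share of the cells cannot be told apart.

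Poly(A)-binding proteins coat the poly(A) tail of mRNAs in the cytoplasm, where they protect the tail and, through eIF4G bound at the cap, favor translation. La recognizes the uridine-rich 3′ end of RNAs made by RNA polymerase III, and the La-related proteins share its RNA-binding La module while differing in what they bind. LARP1 binds the 5′ end of terminal oligopyrimidine (TOP) mRNAs, which encode ribosomal proteins and translation factors. LARP4 associates with poly(A), and both LARP4 and LARP4B associate with poly(A)-binding protein. LARP6 binds a stem-loop in collagen mRNAs, and LARP7 holds the 7SK RNA.

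Sites crosslinked to PRRC2B had been listed from PAR-CLIP, a method that maps where a protein contacts RNA. They were listed for the full-length protein and for its P2 fragment, both overexpressed with a FLAG tag. Of the 10 mRNAs, SSB and PABPC1 had a site listed for full-length PRRC2B and PABPC4 had one listed for P2, and none of the 3 had a site listed for both. The paper took mRNAs with sites shared by both forms as PRRC2B-bound, and by that measure none of the 10 was bound. The SSB and PABPC4 sites are shown because contact with full-length PRRC2B (SSB) or with its P2 fragment (PABPC4) was recorded there. The first spans chr2:169810943-169811042 on the plus strand of GRCh38, in exon 10 of SSB and wholly within the coding sequence. The second spans chr1:39564444-39564543 on the minus strand, with 99 of its 100 bases in coding exon 10 of PABPC4. Each is written 5′ to 3′ as DNA, and capitals mark the first of its longest unbroken runs of G and A.
SSB site: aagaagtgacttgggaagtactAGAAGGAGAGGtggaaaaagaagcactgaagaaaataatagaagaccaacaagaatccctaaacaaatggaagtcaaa
PABPC4 site: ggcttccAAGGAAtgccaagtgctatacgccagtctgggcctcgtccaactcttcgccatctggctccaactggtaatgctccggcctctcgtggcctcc
G and A made up 75.0% of the SSB site, with a longest run of 11 bases, and another run of the same length follows the one in capitals after a single t. In the PABPC4 site C and T made up 60%. Its longest run of G and A was 6 bases, and its longest run of C and T, not in capitals, was also 6 bases. The PABPC1 site was listed across the 5′ UTR and the coding sequence and is not shown.

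TE was taken as the ratio of polysome RNA to total RNA, and a TE change is the log2 difference of that ratio between shPRRC2B and shCtrl cells. Calls required a log2 change of more than 0.5 in either direction and an adjusted p under 0.05. TE-down calls were made for LARP1, LARP1B, LARP4, LARP4B, SSB, PABPC1 and PABPC4, 7 of the 10 mRNAs, where 16.4% of all genes tested were TE-down. LARP6 was the 1 TE-up call, where 10.7% of all genes were TE-up. The median TE change of the 10 mRNAs was -0.67 on the log2 scale, and that of all genes tested was -0.03.

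**Figure D1:**
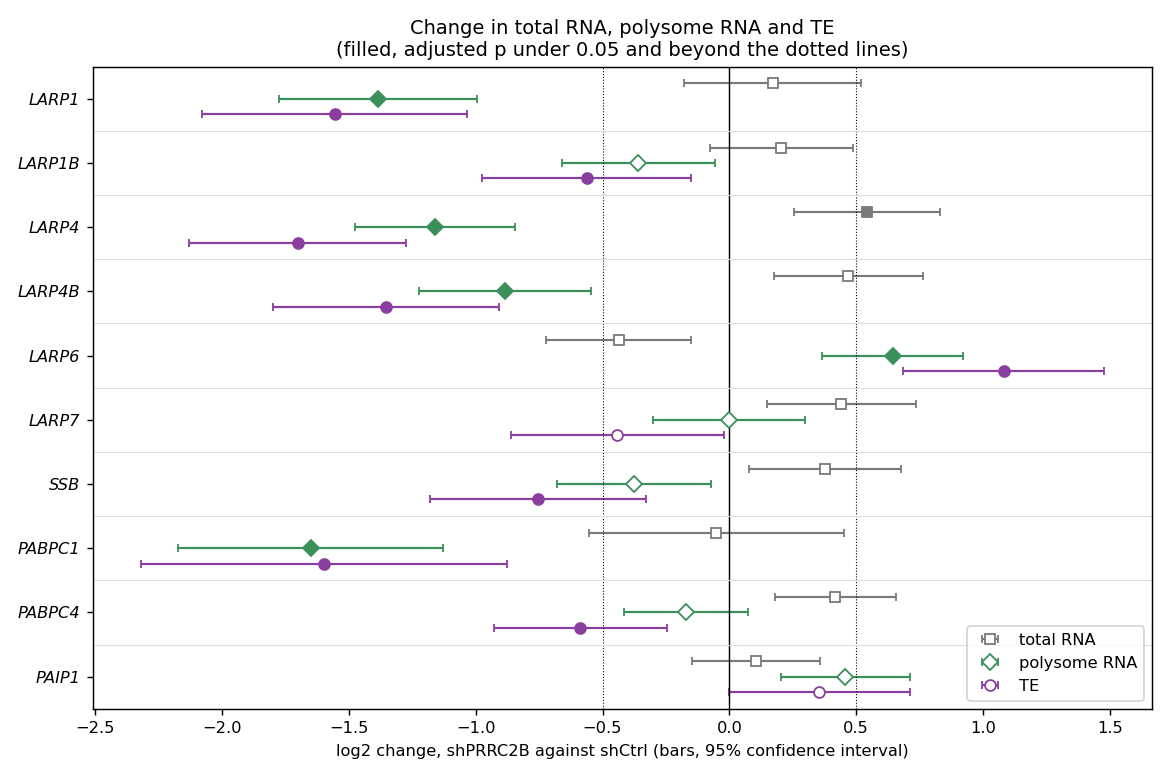
Log2 change between shPRRC2B and shCtrl cells (horizontal axis) of total RNA (squares), polysome RNA (diamonds) and TE (circles) for each of the 10 mRNAs, with 95% confidence intervals from the edgeR fit. Filled symbols were called and dotted lines stand at a log2 change of 0.5 and -0.5. LARP4, PABPC1, LARP1 and LARP4B have the lowest TE changes, from -1.70 to -1.35, and LARP6 lies alone on the positive side with a filled TE symbol.

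LARP1 (chr5:154682986-154817605, plus strand, 19 exons), the TOP mRNA-binding protein and a target of mTOR signaling, was lower in polysome RNA upon knockdown, with little difference in total RNA. In shCtrl cells its total RNA was at 374, 378 and 355 CPM and its polysome RNA at 30.0, 48.4 and 44.8 CPM. In shPRRC2B cells the corresponding values were 411, 416 and 419 CPM for total RNA and 19.3, 16.2 and 11.5 CPM for polysome RNA. All 3 polysome values of the knockdown line lay below all 3 of the control line, whereas total RNA lay slightly above without overlap. TE fell by 1.55 on the log2 scale, which is 2.94-fold (SE 0.25, 95% interval -2.08 to -1.03, edgeR adjusted p = 2.82e-04). The ratio of mean polysome to mean total CPM went from 0.111 to 0.0377.

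LARP1B (chr4:128061286-128222931, plus strand, 20 exons) is the close paralog of LARP1. Its total RNA was at 31.4, 32.8 and 34.8 CPM in shCtrl and 36.9, 39.8 and 37.2 CPM in shPRRC2B cells. Its polysome RNA was at 23.8, 25.6 and 24.4 CPM in shCtrl and 22.01, 19.9 and 15.6 CPM in shPRRC2B cells. Both fractions were without overlap, in opposite directions and by small amounts. The TE change was -0.56 ± 0.20 (SE; 95% interval -0.98 to -0.15, edgeR adjusted p = 0.0410), close to both thresholds. The call was kept in 3 of the 12 analyses that each left out 1 library (the library left out being polysome replicate 1 or 3 of shCtrl, or replicate 1 of shPRRC2B), with adjusted p from 0.00694 to 0.104 over the 12. The 95% intervals of LARP1 and LARP1B did not overlap here but did with the trend on transcript length removed (-1.51 to -0.55 and -0.66 to 0.11), and the difference between these paralogs was not itself tested.

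LARP4 (chr12:50392383-50480004, plus strand, 16 exons), which associates with poly(A) tails, had one of the lowest TE changes of the 10, together with PABPC1. Total RNA was at 65.1, 62.0 and 69.0 CPM in shCtrl and 97.3, 96.0 and 92.3 CPM in shPRRC2B cells. Polysome RNA was at 31.0, 44.7 and 39.6 CPM in shCtrl and 19.9, 16.4 and 15.1 CPM in shPRRC2B cells. The mRNA thus rose in total RNA and fell in polysome RNA, with no overlap in either. TE fell by 1.70 on the log2 scale, or 3.25-fold (SE 0.20, 95% interval -2.13 to -1.27, edgeR adjusted p = 3.19e-05).

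LARP4B (chr10:806933-931821, minus strand, 18 exons), the paralog of LARP4, showed the same arrangement of values. Total RNA was at 101, 101 and 91.4 CPM in shCtrl and 136, 138 and 132 CPM in shPRRC2B cells. Polysome RNA was at 27.7, 20.0 and 20.4 CPM in shCtrl and 14.9, 11.7 and 10.3 CPM in shPRRC2B cells. Again neither fraction overlapped between the lines, total RNA being higher and polysome RNA lower upon knockdown. The TE change was -1.35 ± 0.21 (SE; 95% interval -1.80 to -0.91, edgeR adjusted p = 2.45e-04).

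LARP6 (chr15:70829130-70854157, minus strand, 3 exons), the collagen mRNA-binding member, had the 1 TE-up call. Its total RNA was at 31.9, 34.6 and 31.7 CPM in shCtrl and 23.8, 26.0 and 22.8 CPM in shPRRC2B cells. Its polysome RNA was at 169, 157 and 151 CPM in shCtrl and 198, 264 and 284 CPM in shPRRC2B cells. The mRNA was thus lower in total RNA and higher in polysome RNA upon knockdown, without overlap in either fraction. TE rose by 1.08 on the log2 scale, or 2.11-fold (SE 0.19, 95% interval 0.68 to 1.48, edgeR adjusted p = 5.69e-04), and the ratio of mean CPM went from 4.86 to 10.3. LARP6 shares 123 exonic bases with LRRC49 on the opposite strand, and no strand option is given for the counting, so pairs in those bases cannot be assigned to either gene. LRRC49 had 2193 counts over the 12 libraries and LARP6 had 16667.

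LARP7 (chr4:112637077-112657696, plus strand, 13 exons), the 7SK RNA-binding member, was higher in total RNA of the knockdown line, with no such difference in polysome RNA. Total RNA was at 37.4, 33.8 and 39.3 CPM in shCtrl and 50.02, 50.8 and 49.2 CPM in shPRRC2B cells. Polysome RNA was at 53.7, 48.5 and 46.1 CPM in shCtrl and 57.1, 52.7 and 38.4 CPM in shPRRC2B cells. The polysome values of the lines overlapped, and the knockdown values reached both above and below those of the control. The TE change of -0.44 ± 0.20 (SE; 95% interval -0.86 to -0.02, edgeR adjusted p = 0.111) was not called. Without shPRRC2B polysome replicate 1 it was -0.62 and was called (adjusted p = 0.0231, in a range of 0.0231 to 0.238 over the 12 libraries left out in turn).

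SSB (chr2:169791933-169812064, plus strand, 12 exons), which encodes La, had total RNA at 139, 131 and 145 CPM in shCtrl and 173, 193 and 172 CPM in shPRRC2B cells. Polysome RNA was at 122, 114 and 113 CPM in shCtrl and 109, 92.8 and 67.6 CPM in shPRRC2B cells. Total RNA was higher and polysome RNA lower in every knockdown library than in any control library, with a wide spread among the 3 knockdown polysome libraries. TE fell by 0.75 on the log2 scale, or 1.69-fold (SE 0.20, 95% interval -1.18 to -0.33, edgeR adjusted p = 0.0106). The gene shares 572 exonic bases with METTL5 on the opposite strand, and without strand those pairs cannot be told apart. METTL5 had 20798 counts over the 12 libraries, and SSB had from 711 to 5386 in a single library. The level of SSB carries that limit.

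PABPC1 (15 exons), the main cytoplasmic poly(A)-binding protein and itself encoded by a TOP mRNA, was the most abundant of the 10 in total RNA. There it was at 859.9, 876 and 854 CPM in shCtrl and 819, 852 and 828 CPM in shPRRC2B cells. In polysome RNA it was at 219.7, 319 and 581 CPM in shCtrl and 138, 127 and 91.7 CPM in shPRRC2B cells. The control polysome libraries spread widely, with replicate 3 the highest, yet each was above every knockdown library. TE fell by 1.60 on the log2 scale, or 3.03-fold (SE 0.34, 95% interval -2.32 to -0.88, edgeR adjusted p = 0.00248). Leaving out 1 library at a time gave TE changes from -1.90 to -1.18, all called. Of 133864 counts for PABPC1 in the 12 libraries, the 13 pseudogenes named after it added 41 in their own entries. Pairs that map to both had been left out of the counting.

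PABPC4 (chr1:39560709-39576790, minus strand, 16 exons), the inducible poly(A)-binding protein, had a smaller TE change than PABPC1, with 95% intervals that overlapped. Total RNA was at 196, 206 and 179 CPM in shCtrl and 256, 267 and 254 CPM in shPRRC2B cells. Polysome RNA was at 110.1, 115 and 121 CPM in shCtrl and 97.2, 114 and 95.6 CPM in shPRRC2B cells. Total RNA was higher without overlap while the polysome values of the lines overlapped, so that the TE change of -0.59 ± 0.16 (SE; 95% interval -0.93 to -0.25, edgeR adjusted p = 0.0124) arose with no call in polysome RNA. An antisense gene, PABPC4-AS1, shares 1118 exonic bases with PABPC4 but had 105 counts over the 12 libraries.

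PAIP1 (chr5:43526267-43557758, minus strand, 11 exons), which binds poly(A)-binding protein and favors translation, had total RNA at 49.2, 49.6 and 50.2 CPM in shCtrl and 55.2, 56.0 and 48.8 CPM in shPRRC2B cells. Polysome RNA was at 96.8, 106 and 84.5 CPM in shCtrl and 141, 119 and 135 CPM in shPRRC2B cells. Total RNA overlapped between the lines and polysome RNA was higher in every knockdown library. The TE change was 0.35 ± 0.17 (SE; 95% interval 0.00 to 0.71, edgeR adjusted p = 0.134) and was not called.

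**Figure D2:**
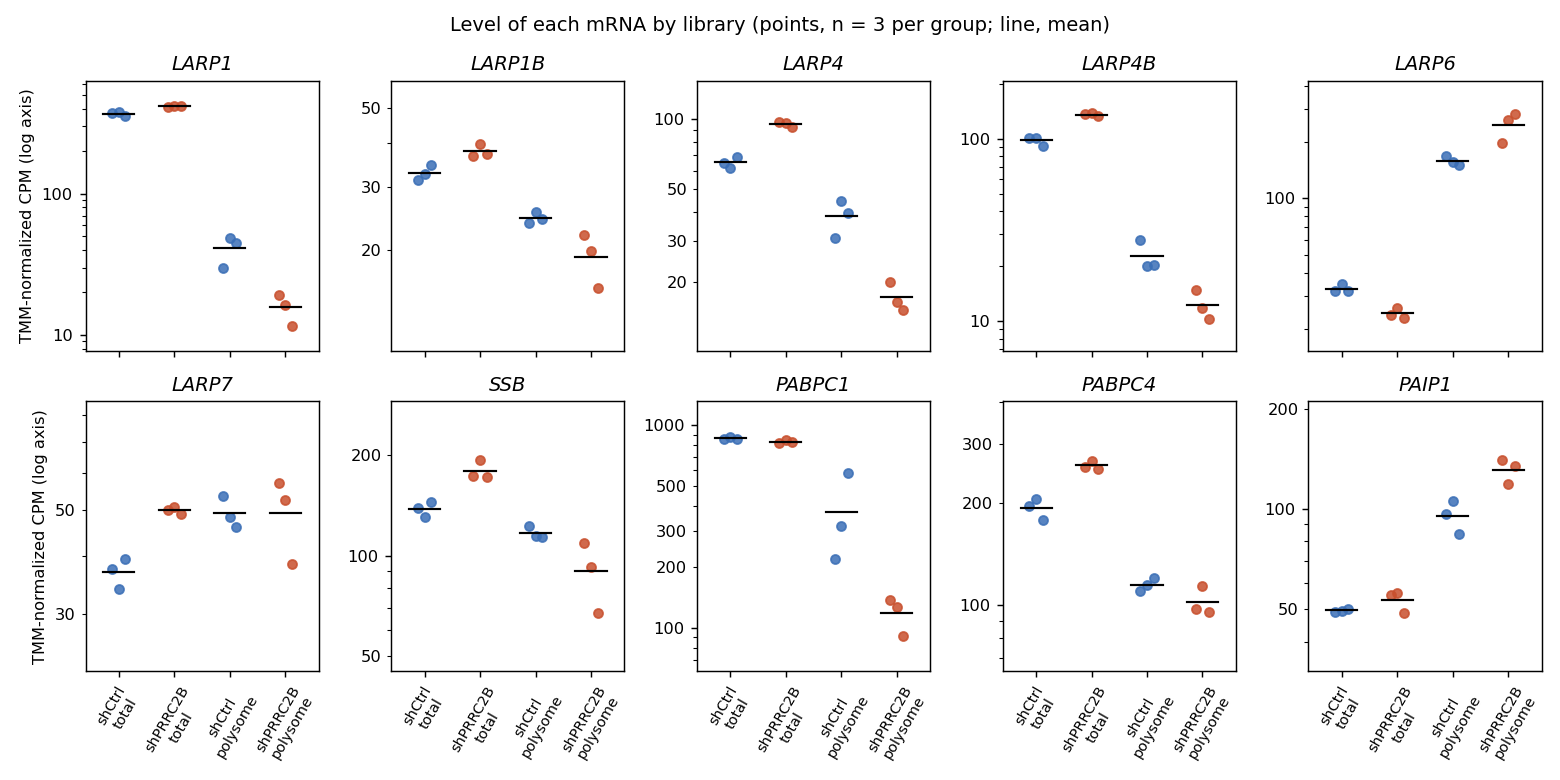
TMM-normalized CPM of each of the 10 mRNAs (vertical axes, log scale, set for each gene) in the 12 libraries, by line and fraction. Points are libraries (3 per group), lines are group means, and blue and red mark shCtrl and shPRRC2B cells. LARP1, LARP4, LARP4B and PABPC1 drop between the polysome groups, LARP6 rises there, and the 3 shCtrl polysome values of PABPC1 spread from 219.7 to 581 CPM.

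The fractions contributed unequally to these TE changes. In total RNA, LARP4 was the 1 mRNA of the 10 that was called, with a log2 change of 0.54 ± 0.14 (SE; edgeR adjusted p = 0.00553), where 14.9% of all genes were called up and 14.1% down. The call was lost without any 1 of the 6 polysome libraries, which take part in the scaling, since the change of LARP4 was then 0.49, just under the minimum. Changes below the minimum log2 change but with an adjusted p under 0.05 were seen for LARP4B (0.47, adjusted p = 0.0150), LARP7 (0.44, adjusted p = 0.0212), PABPC4 (0.42, adjusted p = 0.00906), SSB (0.38, adjusted p = 0.0477) and LARP6 (-0.44, adjusted p = 0.0190). For LARP1, LARP1B, PABPC1 and PAIP1 the log2 changes were 0.17, 0.20, -0.05 and 0.10, and none passed. The total RNA values of the lines did not overlap for 9 of the 10 mRNAs, PAIP1 being the exception, a pattern shared by 63% of all genes tested.

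In polysome RNA, 4 of the 10 mRNAs were called down, where 21.4% of all genes were, and LARP6 was called up, where 18.4% were. PABPC1 fell by 1.65 on the log2 scale (edgeR adjusted p = 4.63e-05), LARP1 by 1.38 (adjusted p = 1.53e-05), LARP4 by 1.16 (adjusted p = 1.10e-05) and LARP4B by 0.88 (adjusted p = 2.61e-04). LARP6 rose by 0.64 (adjusted p = 7.45e-04), although without shPRRC2B polysome replicate 3 its change was 0.45 and was not called. PAIP1 (0.46, adjusted p = 0.00510), SSB (-0.38, adjusted p = 0.0413), LARP1B (-0.36, adjusted p = 0.0507) and PABPC4 (-0.17, adjusted p = 0.243) were not called. SSB was called at -0.65 without shPRRC2B polysome replicate 1 and at -0.50 without shCtrl polysome replicate 3, and LARP1B at -0.58 without shPRRC2B polysome replicate 1. LARP7 averaged 49.4 CPM in polysome RNA of both lines, with a 95% interval of its log2 change from -0.30 to 0.30. Polysome values did not overlap between the lines for 8 of the 10 mRNAs, all but LARP7 and PABPC4, as for 43.1% of all genes.

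The TE-down mRNAs thus differed in which fractions were called. PABPC1 and LARP1 fell in polysome RNA with total RNA changes of -0.05 and 0.17. LARP4 and LARP4B were lower in polysome RNA and higher in total RNA, so that both fractions added to the TE change, although the total RNA change of LARP4B was not called. For SSB, PABPC4 and LARP1B neither fraction was called alone. Their changes were also positive in total RNA and negative in polysome RNA, and those of SSB were 0.38 and -0.38. With the trend on transcript length removed SSB was called down in polysome RNA (-0.66, edgeR adjusted p = 0.00252).

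The 10 mRNAs also differed widely in where they lay before any knockdown. Compared per length, as mean CPM per kb of the canonical transcript, PABPC1 was the most abundant in shCtrl total RNA at 302 ± 3.99 (SD, n = 3), followed by SSB at 83.7 ± 4.19, PABPC4 at 61.7 ± 4.32 and LARP1 at 51.4 ± 1.74. PAIP1 (17.9 ± 0.187), LARP7 (17.5 ± 1.32) and LARP4B (16.4 ± 0.933) came next, and LARP7 overlapped with both of the others. LARP4 stood at 10.2 ± 0.547, above LARP6 at 7.33 ± 0.357 and LARP1B at 6.81 ± 0.345, which overlapped with each other. In shCtrl polysome RNA the order was different, since LARP6 at 35.6 ± 2.03 CPM per kb overlapped with PABPC4 at 36.6 ± 1.66 and PAIP1 at 34.4 ± 3.80, while LARP1 at 5.72 ± 1.36 was among the 4 lowest. In shPRRC2B polysome RNA, LARP6 had the highest mean of the 10 at 55.6 ± 10.1 CPM per kb, with values that overlapped with those of SSB (54.4 ± 12.6), PAIP1 (47.2 ± 4.06) and PABPC1 (41.6 ± 8.42).

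The polysome-to-total ratio within shCtrl cells was called up for LARP6 and PAIP1 (PAIP1 turned to -0.052 with scaling by total counts) and down for LARP1, LARP4, LARP4B, PABPC1 and PABPC4, where 32.5% of all genes were up and 39.8% down. LARP6 had a log2 ratio of 2.28 and PAIP1 of 0.94, against -3.17 for LARP1, -2.10 for LARP4B and -1.21 for PABPC1. In shPRRC2B cells LARP6 and PAIP1 were up, 7 mRNAs were down and LARP7 was not called, where 36.6% of all genes were up and 42.3% down. The log2 ratio there was 3.36 for LARP6, 1.30 for PAIP1, -4.72 for LARP1, -3.46 for LARP4B and -2.81 for PABPC1. These ratios are relative to other mRNAs and depend on the scaling between fractions. Scaling by total counts moved the median of all genes by -0.996 on the log2 scale in shCtrl cells and by -0.944 in shPRRC2B cells, whereas it moved the median TE change by 0.05. With that scaling the shCtrl ratio of LARP7 went from 0.43 to -0.58, the shPRRC2B ratio of PAIP1 fell to 0.35 and was no longer called, and LARP6 stayed called up in both lines.

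Ratios and TE changes both moved with transcript length over the whole table, and the 10 mRNAs are of unequal length. The canonical transcripts were 7181 nt for LARP1, 6441 nt for LARP4, 5963 nt for LARP4B, 4847 nt for LARP1B and 4467 nt for LARP6, and 3142 nt for PABPC4, 2861 nt for PABPC1, 2780 nt for PAIP1, 2107 nt for LARP7 and 1650 nt for SSB. Across 15762 genes with a known length, Spearman's rho of length was -0.56 with the shCtrl ratio and -0.41 with the TE change, over genes that share the same 12 libraries. The median TE change went from 0.48 for transcripts up to 1000 nt to -0.78 for those over 8000 nt. LARP1 and LARP4 fell in the class of 6000 to 8000 nt, whose median TE change was -0.61, and 10.7% and 8.02% of that class lay lower than they did. PABPC1 and SSB were in classes with medians of 0.07 and 0.28, and 2.43% and 8.62% of those classes lay lower. LARP6 lay above 94.4% of the genes of 4000 to 5000 nt in TE change and above 97.8% of them in shCtrl ratio.

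**Figure D3:**
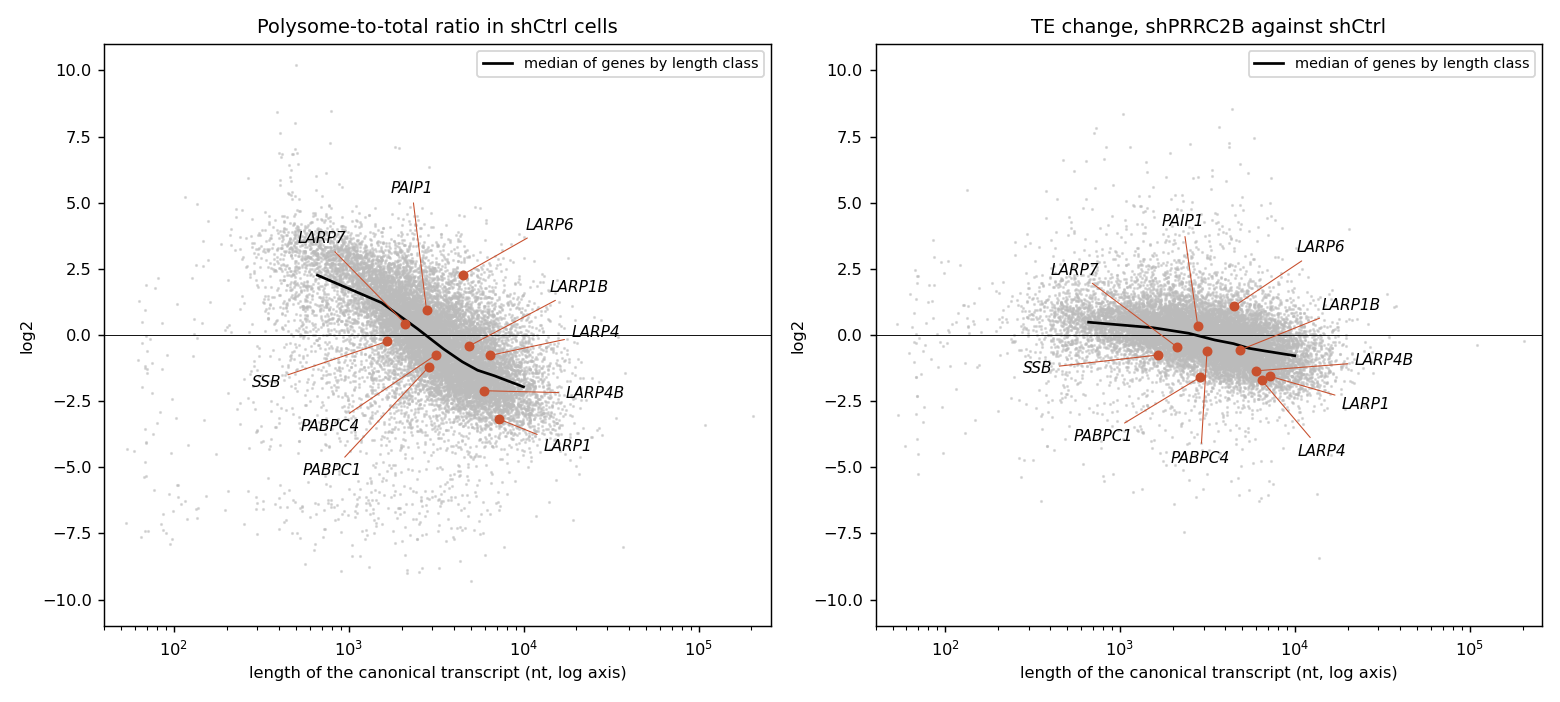
Log2 polysome-to-total ratio in shCtrl cells (left) and log2 TE change (right) against canonical transcript length in nt (log axis) for 15762 genes (grey points), with the 10 mRNAs in red and the median of each length class as a black line. LARP6 lies above the line in both panels, PABPC1 and SSB lie below it in both, and LARP4 lies above it on the left and below it on the right.

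With the trend on length removed from every library, 7 of the 10 mRNAs were again TE-down and 1 was TE-up, where 13% and 8.63% of all genes were, but the 7 were not the same genes. LARP1B was no longer called (-0.28, edgeR adjusted p = 0.305) and LARP7 was (-0.68, adjusted p = 0.0255). The changes of LARP1 (-1.03, adjusted p = 0.00448), LARP4 (-1.24, adjusted p = 3.33e-04) and LARP4B (-0.94, adjusted p = 0.00418), the 3 longest, were smaller than before and still called. Those of SSB (-1.09, adjusted p = 0.00222) and LARP6 (1.32, adjusted p = 3.30e-04) were larger. PABPC1 (-1.67, adjusted p = 0.00248) and PABPC4 (-0.59, adjusted p = 0.0128) hardly moved, and PAIP1 (0.26, adjusted p = 0.286) was not called. The shCtrl ratio of LARP4 changed direction with the trend removed, from -0.77 to 0.61, and that of LARP1B from -0.42 to 0.58. SSB gained a call in the shCtrl ratio, which went from -0.24 to -1.31 (adjusted p = 1.01e-06), and LARP7 in the shPRRC2B ratio, which went from -0.02 to -0.85 (adjusted p = 4.77e-05).

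The mRNAs that these proteins bind or work with were counted in fixed lists, as a description. A list of 16 partners of poly(A)-binding protein was used, most of which carry a PAM2 motif or, like eIF4G1, bind it directly. Of these 16, 9 were TE-down and 0 TE-up by edgeR (16.4% and 10.7% of all genes), with a median TE change of -0.81. DESeq2 and limma also called 0 up, and at an unadjusted p under 0.05 the number higher was 0 in edgeR and limma and 1 in DESeq2. TNRC6A, a GW182 protein of microRNA silencing, was at -1.57 (adjusted p = 0.00181) and PAN3, a subunit of a deadenylase, at -1.44 (adjusted p = 0.00593). With the length trend removed, 7 were TE-down and 1 was TE-up, where 13% and 8.63% of all genes were. Among 7 other poly(A)-binding protein genes, 4 could be tested. Of these 1 was TE-up and 1 TE-down, where 10.7% and 16.4% of all genes were. PABPN1, the nuclear poly(A)-binding protein, was TE-up (0.93, adjusted p = 0.0252). ZC3H14, a nuclear poly(A)-binding zinc finger protein, was TE-down (-0.72, adjusted p = 0.0129). Neither call was made with the trend removed. PABPC1L (-0.30, edgeR adjusted p = 0.517) and PABPC4L (-0.75, edgeR adjusted p = 0.102) were not called.

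The TOP mRNAs, which LARP1 binds, were counted in a pair of lists. Of 79 cytosolic ribosomal protein genes 77 were tested, and 24 were TE-up and 0 TE-down by edgeR (10.7% and 16.4% of all genes) with a median TE change of 0.34, with the largest rises for RPL41 (1.53, adjusted p = 6.05e-05) and RPL39 (1.47, adjusted p = 8.74e-05). DESeq2 and limma also called 0 of them down, and at an unadjusted p under 0.05 the number lower was 1 in edgeR and DESeq2 and 0 in limma. In total RNA 44 of the 77 were called down, where 14.1% of all genes were. In polysome RNA 6 were called up and 15 down (18.4% and 21.4% of all genes), with a median change of -0.13. RPL39 changed by -1.62 in total RNA and by -0.15, not called, in polysome RNA. With the length trend removed 13 were TE-up and 3 TE-down (8.63% and 13% of all genes), and the median TE change was -0.08. Of 14 other TOP mRNAs, a list without PABPC1 (itself TE-down at -1.60), 13 were tested. By edgeR 0 were TE-up and 2 TE-down (10.7% and 16.4% of all genes), with a median TE change of -0.56. The TE-down share of this list was thus near that of all genes, although its median lay below theirs (-0.03). With the length trend removed 4 were TE-down, where 13% of all genes were, and the median was -0.50. Those called before its removal were EIF4B (-1.01, adjusted p = 0.00577) and EIF3E (-0.71, adjusted p = 0.0213), which encode initiation factors. DESeq2 and limma also called 0 up, and 0 were higher at an unadjusted p under 0.05 in any of the 3 tools.

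Of the 6 genes of the 7SK particle and P-TEFb, the complex that LARP7 takes part in, 3 were not called in TE. Among the 6, 2 were TE-down and 1 was TE-up, where 16.4% and 10.7% of all genes were. CCNT1 and CCNT2, the cyclins of P-TEFb, were TE-down (-2.57, adjusted p = 5.62e-05, and -0.95, adjusted p = 0.0150). HEXIM2, an inhibitor of P-TEFb, was TE-up (1.27, adjusted p = 0.0499), at low group means of 2.07 to 5.70 CPM. Of 3 collagen mRNAs known as LARP6 targets 2 were tested, and 1 was TE-down, where 16.4% of all genes were. COL3A1 was not called in TE (-1.68, edgeR adjusted p = 0.0951). It was called down in total RNA (-1.62, edgeR adjusted p = 8.35e-04) and in polysome RNA (-3.30, edgeR adjusted p = 3.22e-04), at low group means of 0.124 to 5.99 CPM. COL1A1 was TE-down (-0.90, adjusted p = 0.0263), opposite in direction to LARP6 itself. The total RNA of COL1A1 rose by 0.89 on the log2 scale (edgeR adjusted p = 6.32e-04). Its polysome RNA hardly moved (-0.009, edgeR adjusted p = 0.993), at low means of 3.73 CPM in shCtrl and 3.72 CPM in shPRRC2B cells. With the length trend removed, CCNT1 was still called (-2.08, adjusted p = 3.14e-04), while CCNT2 (-0.45, adjusted p = 0.235), HEXIM2 (0.87, adjusted p = 0.177) and COL1A1 (-0.48, adjusted p = 0.239) were not.

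**Figure D4:**
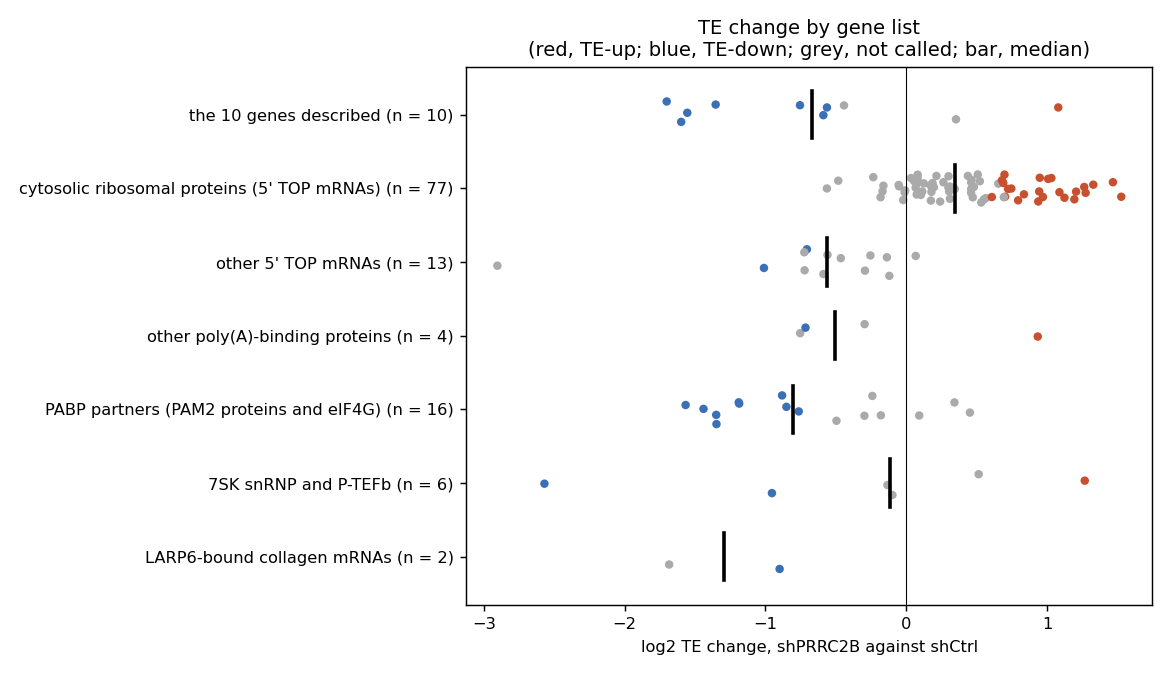
Log2 TE change (horizontal axis) of each tested gene of the 10 described and of 6 gene lists, with n the number tested. Red and blue points were called TE-up and TE-down, grey points were not called, and black bars are medians. The bar of the 10 mRNAs stands at -0.67 and that of the poly(A)-binding protein partners at -0.81, while that of the ribosomal proteins stands at 0.34.

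For each of the 10, the most similar patterns over the 12 libraries were found by the root mean square difference of centered log2(CPM + 1) values among 10041 other genes that averaged 10 CPM or more. LARP1 was closest to SMC1A (0.124) and TAOK1 (0.159), and LARP4 to CADM1 (0.115) and LIN54 (0.118). LARP1B was closest to NET1 (0.0839) and RAB10 (0.0903), and SSB to DNAJC2 (0.0855) and the same RAB10 (0.0951). LARP4B was closest to ATP2A2 (0.126) and INTS2 (0.136).
LARP6 was closest to TMEM203 (0.109) and PRXL2C (0.131), and LARP7 to NSFL1C (0.104) and TXNDC11 (0.115). PABPC4 was closest to FKBP4 (0.0949) and TAF5 (0.109), and PAIP1 to RMDN3 (0.101) and KANSL2 (0.101). PABPC1 was closest to SLC38A2 (0.199) and SLC30A7 (0.200), at the largest distances of the 10. Among the 10 themselves, LARP1B and SSB were the most alike, at 0.0980, and LARP1 and LARP6 the least, at 3.43.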

How the data were processed

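Total and polysome-associated RNA of shCtrl and shPRRC2B HEK293T cells were compared in 12 libraries, grouped by their labels. The authors deposited raw counts of read pairs per gene name, without normalization. Per the methods and the submitters' processing notes, Trimmomatic 0.36 was used for trimming and HISAT2 (2.1.0 in the notes) for mapping to GRCh38, and pairs were counted with featureCounts of Subread 2.0.1 on GENCODE 38. No strand option is given, and multi-mapping pairs were not counted. The table held 0 columns of no library.

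Counts were analyzed in R 4.3.3 with edgeR 4.0.16 (filterByExpr with a minimum count of 10, TMM over 12 libraries, quasi-likelihood test, 4 groups, no block), with p-values adjusted by the Benjamini-Hochberg method over all 18166 genes tested. Standard errors were derived from the F statistics. Transcript models and positions were from GENCODE 44, and 86.8% of genes tested had a length. Binding sites came from the study's lists and their bases from GRCh38. The fit was tested on simulated data.

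The genes described and the lists were chosen with earlier results of these data known. The text names these 10 genes, PRRC2B, up to 2 genes with the largest rise and 2 with the largest fall in TE per list among those called, and the 2 most similar patterns per gene. Overlapping or antisense genes (METTL5, LRRC49, PABPC4-AS1), eIF4G1, COL3A1, PABPC1L and PABPC4L were named outside this rule, after their values were seen.

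Alternatives were DESeq2 1.42.0, RLE size factors, total-count scaling, TMM within fractions, other filters on low counts, limma 3.58.1 on log2(CPM + 1), replicate blocks, removal of the length trend (lowess with span 0.3), no minimum log2 change, libraries of 1 fraction or line alone, and each library left out. Same-numbered samples deviated from their group means with correlations of -0.0596 to 0.0507 over 18 pairs, so the numbers were not taken to pair samples. No share of counts was given an interval, and the errors printed are SDs or standard errors.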

Additional observations from a re-analysis of the deposited data

Results flagged for a closer look

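For 8 of the 10 mRNAs the effect of the knockdown in polysome RNA differed from that in total RNA by the test of the difference itself, which is the TE change (edgeR, adjusted p under 0.05). On the log2 scale the difference, polysome minus total, was -1.55 for LARP1, -0.56 for LARP1B, -1.70 for LARP4, -1.35 for LARP4B, 1.08 for LARP6, -0.75 for SSB, -1.60 for PABPC1 and -0.59 for PABPC4. Among all genes tested, 16.4% were called down and 10.7% up in this test. The call for LARP1B was lost in 8 of 12 alternatives and in 9 of the 12 analyses without 1 library.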

How the results depend on the processing

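The TE calls of LARP1, LARP4, LARP4B, LARP6, SSB, PABPC1 and PABPC4 held in all 12 alternatives and in all 12 analyses without 1 library, with adjusted p at most 0.0372. LARP1B lost its call in 8 of the 12 alternatives (adjusted p from 0.00995 to 0.345), and LARP7 gained one with the length trend removed (0.0255 to 0.221 over the 12). With the replicate block, 6 of the 10 mRNAs were TE-down in place of 7 (LARP1B at adjusted p = 0.0574) and 1 was TE-up, and the block changed no other call. In total RNA the number of these mRNAs called up, 1, became 5 with no minimum log2 change and 0 with total count scaling, TMM within fractions or the length trend removed (with or without the replicate block), and the number called down, 0, became 1 with no minimum or with total count scaling. Leaving out 1 library gave 0 to 1 up in total RNA and 0 to 1 up in polysome RNA, where no minimum and a filter of 10 counts in every library gave 2. Ratio calls in shCtrl cells were 1 up and 8 down with total count scaling or TMM within fractions and 4 up with the length trend removed (also with the block), and in shPRRC2B cells 1 up with either scaling. These scalings moved the median log2 ratio of all genes by -0.996 and -0.9997 in shCtrl and by -0.944 and -0.939 in shPRRC2B cells. Shares of all genes called under these settings are not given here, so the counts are not set against a background. Directions turned for PRRC2B in TE (-0.06 and -0.15 without polysome replicate 1 of shCtrl or shPRRC2B, in a range of -0.15 to 0.30 without 1 library), for LARP7 in polysome RNA (0.019 with TMM within fractions, 0.043 with the stricter filter, -0.23 to 0.066 without 1 library), for the shCtrl ratios of LARP1B (0.58, 0.57 with the block) and LARP4 (0.61) with the length trend removed, of LARP7 (-0.58 with either scaling, -0.17 with the trend removed) and of PAIP1 (-0.052 and -0.062 with the scalings), and for the shPRRC2B ratios of LARP1B (0.30 with the trend removed) and LARP7 (0.0030 with DESeq2, 0.0029 with RLE, 0.011 with the stricter filter, -0.22 to 0.082 without 1 library). The TE change of PRRC2B was 0.16 and not called in the main fit. With the length trend removed it was 0.88 and called up (edgeR adjusted p = 0.0163). The cause of these shifts was not tested. The clone and the shRNA cannot be told apart, polysome libraries varied most, and the lowest count behind any value of the 10 mRNAs was 108, for LARP4B in a polysome library.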
